A study of Mus musculus with 7 samples.

Results

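The genes described here belong to the fatty acid oxidation programme of the nuclear receptor PPARα: the receptor gene Ppara and 7 genes of lipid and fuel use in the liver, Cpt1a, Cpt2, Acadm, Acadl, Ehhadh, Pdk4 and Fgf21. For these 8 genes, every accessible region that overlapped one of their gene bodies or the 10000 bp on either side was taken, which gave 49 of the 55680 regions in the table. By the same rule 28925 annotated genes have at least 1 region. Accessible chromatin was measured by ATAC-seq, in which a transposase inserts sequencing adapters into exposed DNA, in nuclei of whole liver tissue from male C57BL/6N mice. The young group was 3 samples of mice aged 3 months, and the aged group was 4 samples of mice aged 18 months. The sources used here differ on the aged animals, since one gives 3 animals, 1 of which gave 2 liver lobules, and another counts 4 replicates. None tells which samples would share an animal, so the aged samples may not all be independent and p-values over 4 of them may be too small. Reads counted in regions summed to 10384725, 25461110 and 5709327 in young replicates 1 to 3 and to 11717992, 5108283, 4474652 and 8397956 in aged replicates 1 to 4.

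PPARα is a receptor for fatty acids and their derivatives that binds DNA together with RXR and switches on genes of fatty acid uptake and oxidation, above all in the fasted liver. Fatty acids enter mitochondria through the carnitine shuttle, in which Cpt1a on the outer membrane is the controlling step and Cpt2 on the inner membrane completes the transfer. Acadm and Acadl encode dehydrogenases that begin each round of β-oxidation for medium-chain and long-chain fatty acids, and Ehhadh encodes a bifunctional enzyme of peroxisomal β-oxidation. Pdk4 encodes a kinase that switches off pyruvate dehydrogenase and so spares glucose, and Fgf21 encodes a hormone that the liver secretes in fasting.

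Aged liver was compared with young liver to ask how accessibility at these genes differs with age. The promoters of Pdk4 and Acadm were more accessible in aged liver, while 2 regions inside Ppara and 1 inside Cpt1a were less accessible. Of the 49 regions, 6 had an adjusted p under 0.05, against 5.74% of all regions (edgeR's quasi-likelihood test with Benjamini-Hochberg adjustment over all regions). Of these, 3 were higher in aged liver, where the share over all regions was 2.44%, and 3 were lower, where it was 3.30%. This split depended on the scaling and the test, with 6 higher and 2 lower with offsets for GC content, 2 and 5 with scaling to total counts, and 3 and 6 with limma voom. The median log2 fold change (log2FC, aged over young) over the 49 regions was -0.06, beside -0.04 over all regions. It depended on the scaling, at -0.18 with total counts (-0.15 over all regions), 0.01 with GC offsets (0.01) and -0.17 with offsets that remove the trend with region strength (0.01 over all regions). The 2 kinds of region differed in sign: 11 of the 12 regions at a promoter of one of the 8 genes had a positive log2FC, with a median of 0.31, while 25 of the 33 regions outside promoters had a negative one, with a median of -0.28. Of these 25, 20 lie at Ppara (14 of 15) and Cpt1a (6 of 6). At Pdk4 4 of 5 such regions were positive (median 0.33), and the other 5 genes had 3 of 7 positive (median -0.01). The region counted at Ppara at 85808160 (log2FC -0.77) lies over an exon of the neighbouring gene Cdpf1 and so cannot be assigned to Ppara. Among all regions, 61.1% of those at promoters and 41.0% of the others were positive, with medians of 0.09 and -0.09. A promoter region here is one that overlaps the 200 bp on either side of an annotated transcription start site (TSS). Outside promoters 3 of 33 regions passed the test as lower, where 3.78% of all such regions did. The 2 groups were fully separate in log2 CPM in 15 of the 49 regions, 9 with every aged sample higher (10.2% of all regions) and 6 with every aged sample lower (11.6%). The 9 included 7 of the 12 promoter regions of the 8 genes, where 20.4% of all promoter regions separated in this direction.

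The number of calls depended on the libraries used. Without aged replicates 1, 2, 3 and 4 in turn, 0, 7, 2 and 6 of the 49 regions had an adjusted p under 0.05, beside 0.722%, 5.2%, 1.17% and 7.6% of all regions. Leaving out young replicates 1, 2 and 3 gave 1, 2 and 4, beside 0.338%, 0.801% and 4.76%. The Ppara region at 85796635 kept its call in 6 of these 7 fits and the Pdk4 promoter in 5. When each of the 6 pairs of aged samples was summed in turn, these 2 regions kept their calls in all 6 fits, the Acadm promoter and the Ppara region at 85748242 in 5, the region downstream of Cpt2 in 3 and the Cpt1a intron at 3363016 in 1. With offsets that remove the trend of each library with region strength, 1 region was left, beside 1.19% of all regions. The difference in sign at promoters was largely lost with these offsets, with 7 of the 12 promoter regions positive, a median log2FC of 0.04 and none called, beside a median of -0.03 over all promoter regions. Outside promoters 24 of 33 regions were negative with them, with a median of -0.31, beside 0.03 over all such regions. Strong and weak regions moved apart between the ages, with a median log2FC of 0.28 in the top decile of all regions by mean log2 CPM and -0.42 in the bottom decile.

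Pdk4 had the largest difference among the promoters. In CPM, the counts scaled to library size after TMM normalization, its promoter region on chromosome 6 from 5495935 to 5497275 measured 37.6, 47.8 and 36.7 CPM in young replicates 1 to 3 and 65.1, 58.8, 65.6 and 71.8 CPM in aged replicates 1 to 4. All 4 aged samples lay above all 3 young ones. The means were 40.7 ± 6.19 CPM (SD, n = 3) and 65.3 ± 5.29 CPM (SD, n = 4), a log2FC of 0.67 (SE 0.13, adjusted p = 0.013 from edgeR). The log2FC was 0.44 with strength offsets (adjusted p = 0.071), and without aged replicate 1 or young replicate 1 the adjusted p was 0.051 and 0.067 at a log2FC of 0.68 and 0.62. Across its locus 5 of 6 Pdk4 regions had positive log2FC values, among them a region over the 3′ UTR at 5485072 in which every aged sample was above every young one (0.57, SE 0.25, adjusted p = 0.17). Summed over the 6 regions, accessibility at Pdk4 was 62.6, 80.5 and 63.8 CPM in young and 104.9, 96.5, 100.2 and 100.4 CPM in aged samples. A region 3′ of Pdk4 at 5479681 has near-identical copies elsewhere in the genome, so its counts are less certain.

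Acadm had the most accessible promoter of the 8 genes per kb of region. Its region on chromosome 3 from 153943270 to 153945046 measured 87.8, 90.2 and 68.7 CPM in young and 118.5, 108.1, 120.7 and 127.8 CPM in aged samples. The ages did not overlap. The means were 82.3 ± 11.8 CPM (SD, n = 3) and 118.8 ± 8.16 CPM (SD, n = 4), with a log2FC of 0.53 (SE 0.12, adjusted p = 0.026 from edgeR). With strength offsets the log2FC was 0.20 (adjusted p = 0.29), and the adjusted p was 0.065 to 0.080 without aged replicate 1, aged replicate 3, young replicate 1 or young replicate 2, where the log2FC was 0.52 to 0.60. Acadm has 2 further promoter regions within the gene, at 153929186 and 153937250, with log2FC values of 0.13 and 0.47 (adjusted p = 0.61 and 0.18), and in the weaker one at 153937250 the ages did not overlap.

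For the other enzymes of the carnitine shuttle and β-oxidation the promoter differences were smaller and did not pass the test in the main fit. At Cpt2 the promoter region on chromosome 4 from 107921365 to 107923874 measured 63.6, 66.5 and 73.8 CPM in young and 82.9, 86.1, 93.2 and 79.0 CPM in aged samples (log2FC 0.33, SE 0.11, adjusted p = 0.085 from edgeR). At Ehhadh, on chromosome 16 from 21786768 to 21788834, the values were 33.5, 40.4 and 32.4 CPM in young and 49.5, 56.1, 44.1 and 41.0 CPM in aged samples (0.42, SE 0.13, adjusted p = 0.077). At both genes every aged sample was above every young one. The promoter of Acadl, on chromosome 1 from 66861738 to 66863878, also separated the ages, with means of 58.6 ± 4.26 CPM (SD, n = 3) and 72.6 ± 10.9 CPM (SD, n = 4), but its adjusted p was 0.16. The largest of the aged values, 88.5 CPM in replicate 3, raised that mean. The Acadl intron at 66838659 had a log2FC of -0.72 (SE 0.39, adjusted p = 0.28 from edgeR), the largest in size at that gene. It was among the weakest of the 49 regions, at 2.71 CPM over the 7 samples. Its log2FC was -0.405 without aged replicate 4, -1.11 without aged replicate 2 and -0.36 with strength offsets. At Cpt1a the promoter region on chromosome 19 from 3322030 to 3326853, the longest of the 49, had means of 150.6 ± 10.02 CPM (SD, n = 3) and 167.1 ± 25.5 CPM (SD, n = 4), and aged replicate 1 lay below every young sample (log2FC 0.15, adjusted p = 0.52). This estimate was 0.24 without aged replicate 1 and 0.06 without aged replicate 3. It turned negative, to -0.25, with strength offsets, which also left 0.04 at Cpt2, 0.04 at Acadl and 0.23 at Ehhadh. With GC offsets these 3 promoters passed (adjusted p = 0.018, 0.044 and 0.025), as did Cpt2 with DESeq2 (0.041). Ehhadh also passed without aged replicate 4 (adjusted p = 0.040) and with the replicate number as a block (0.030).

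One region near Cpt2 passed the test without being a promoter. It lies downstream of the gene on chromosome 4 from 107899080 to 107900682, over a 3′ UTR of the neighbouring gene 0610037L13Rik, and so cannot be assigned to Cpt2. It measured from 48.3 to 54.6 CPM in the 3 young samples and 64.0, 66.9, 75.6 and 70.4 CPM in aged samples, with no overlap of the ages (log2FC 0.44, SE 0.11, adjusted p = 0.033 from edgeR). With strength offsets the log2FC was 0.19 (adjusted p = 0.39). The call was also lost with total counts (log2FC 0.32, adjusted p = 0.078). It was lost too without aged replicate 1, aged replicate 3, young replicate 1 or young replicate 2 (adjusted p of 0.069 to 0.13). The log2FC without these libraries was 0.40 to 0.48.

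At Ppara the log2FC was positive at the stronger promoter region, though not called, and negative at all gene body regions outside promoters. The promoter region on chromosome 15 from 85733728 to 85736423 measured 111.4, 122.9 and 79.4 CPM in young and 131.6, 129.1, 131.4 and 153.2 CPM in aged samples. Every aged sample was above every young one, young replicate 3 was the lowest, and the log2FC of 0.38 did not pass the test (SE 0.14, adjusted p = 0.12 from edgeR). It was 0.03 with strength offsets and 0.23 without young replicate 3. The second promoter region of Ppara, inside the gene at 85770246, had a log2FC of 0.08 (adjusted p = 0.69 from edgeR), and -0.15 with strength offsets. Within the gene body, all 12 Ppara regions that are not promoters had negative log2FC values, from -1.58 to -0.04 with a median of -0.46. Every aged sample lay below every young one in 4 of the 12, beside 5094 of the 40258 regions of the table outside promoters. In those at 85740652, 85742215, 85745712 and 85774071 aged replicates 1 and 4 alone lay below every young sample. With strength offsets the median over these 12 was -0.49, and again none was positive. Among all intronic regions of the table the medians were -0.09 and 0.04 under these settings.

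The steepest decreases of the 49 regions were in introns of Ppara. The region from 85796635 to 85797227 measured 7.68, 7.48 and 12.3 CPM in young and 2.02, 4.12, 3.04 and 3.18 CPM in aged samples. The means were 9.17 ± 2.74 CPM (SD, n = 3) and 3.09 ± 0.86 CPM (SD, n = 4), a log2FC of -1.58 (SE 0.29, adjusted p = 0.013 from edgeR). It was the one call of the 49 that held with strength offsets (log2FC -1.36, adjusted p = 0.039). It was lost without aged replicate 1 (log2FC -1.38, adjusted p = 0.051). The region from 85748242 to 85748667 measured 6.67, 5.86 and 8.55 CPM in young and 1.93, 4.12, 2.80 and 1.53 CPM in aged samples (log2FC -1.49, SE 0.32, adjusted p = 0.021). In both regions every aged sample was below every young one, and the counts were small, from 13 to 198 and from 12 to 155 reads per library. The second call was lost when any 1 of 5 libraries was left out (aged replicates 1 and 3 and each of the young replicates), with adjusted p of 0.050 to 0.075. The log2FC in these 5 fits was -1.605 to -1.328. It was also lost with strength offsets (log2FC -1.225, adjusted p = 0.073).

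In Cpt1a the intronic regions were negative too. All 5 regions of its gene body that are not promoters had negative log2FC values, with a median of -0.57, which was -0.60 with strength offsets. Every aged sample lay below every young one in 1 of the 5, beside 5094 of the 40258 regions of the table outside promoters. In those at 3335965, 3338220 and 3344904 aged replicate 1 alone lay below every young sample, and at 3352992 (log2FC -0.04) no aged sample did. The region from 3363016 to 3363931 measured 12.96, 12.9 and 16.8 CPM in young and 8.61, 8.63, 9.81 and 8.65 CPM in aged samples. The aged samples were all lower and close together (log2FC -0.66, SE 0.18, adjusted p = 0.047 from edgeR). This call stood nearest to the threshold and was lost when any 1 of the 7 libraries was left out, with adjusted p of 0.056 to 0.12. The log2FC in these fits was -0.73 to -0.53. With strength offsets it was -0.60 (adjusted p = 0.11), and with the replicate number as a block -0.64 (adjusted p = 0.061).

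**Figure D1:**
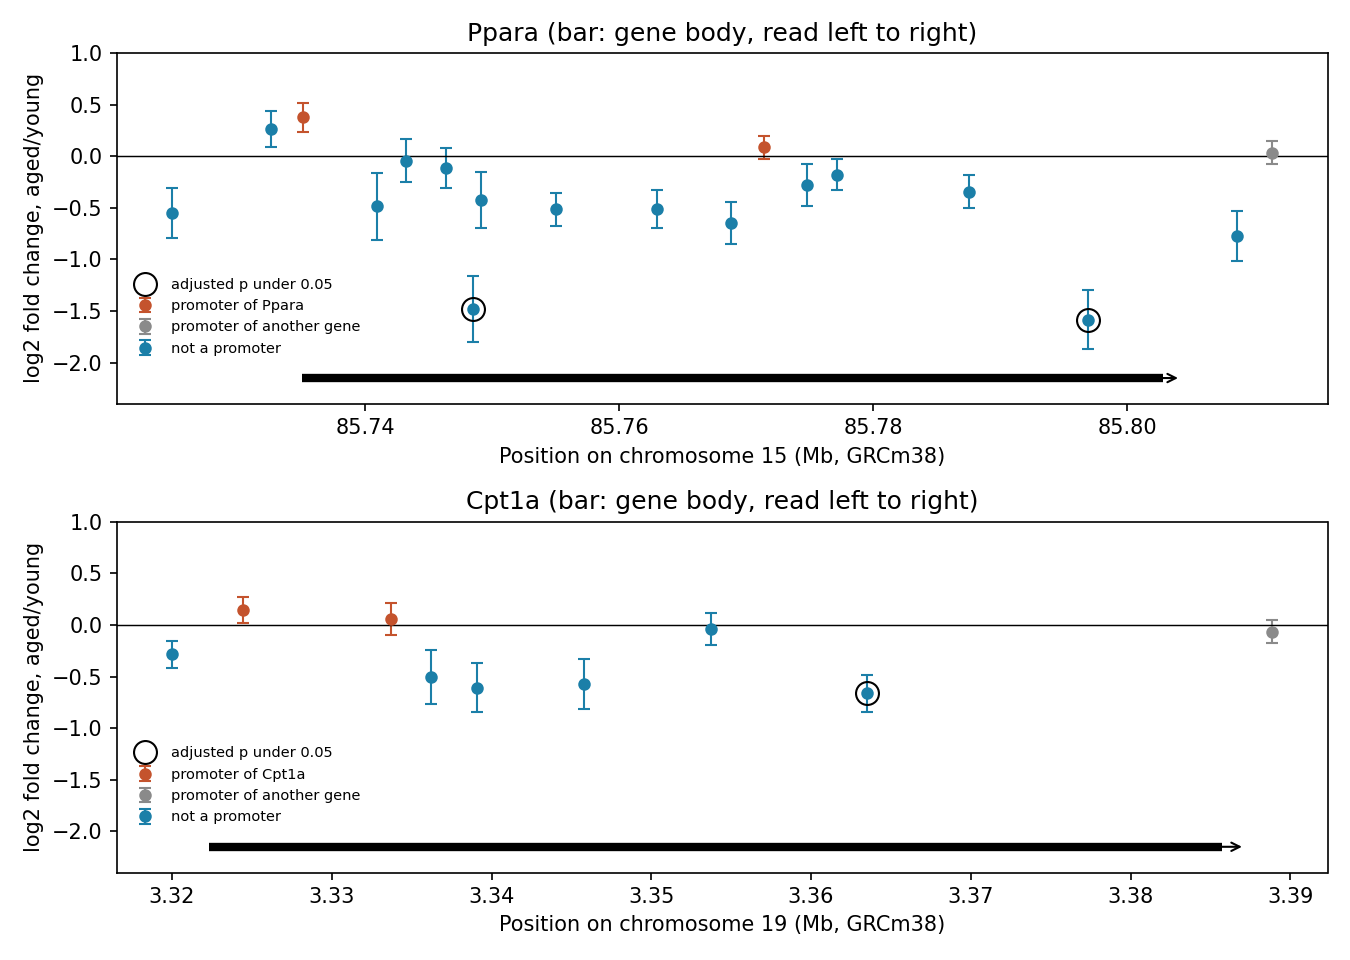
Log2FC of aged over young liver for each region within 10000 bp of Ppara (18 regions) and Cpt1a (9 regions), plotted at its position in Mb, with bars for the standard error. The 2 circled Ppara introns, at -1.58 and -1.49, and the circled Cpt1a intron at -0.66 lie below the promoter regions of these genes, which are at 0.06 or above.

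Fgf21 was the gene with the lowest promoter accessibility and the one promoter with a negative difference. Its promoter region on chromosome 7 from 45614400 to 45616568 measured 19.4, 19.5 and 34.4 CPM in young and 15.9, 27.7, 17.5 and 15.2 CPM in aged samples (log2FC -0.35, SE 0.24, adjusted p = 0.39 from edgeR). The ages overlapped through aged replicate 2 alone, and the other 3 aged samples lay below every young one. The log2FC was -0.57 without aged replicate 2, and it was -0.04 without young replicate 3, the highest of the 7. The region downstream of the gene, at 45609493, did not separate the ages either (-0.01, SE 0.14, adjusted p = 0.97).

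Per kb of region and over the 7 samples, the promoters ranked as Acadm (58.0 ± 12.1 CPM per kb, SD, n = 7), Ppara (45.5 ± 8.47), Pdk4 (40.8 ± 10.6), Cpt1a (33.2 ± 4.33), Acadl (31.1 ± 5.15), Cpt2 (31.0 ± 4.23), Ehhadh (20.5 ± 4.08) and Fgf21 (9.85 ± 3.26). Every pair of neighbours in this order overlapped in range over the samples. Within samples Acadm was above Ppara and Cpt2 above Ehhadh in all 7, whereas Acadl was above Cpt2 in 3 of 7. The means of Pdk4 and Cpt1a were close in young liver, at 30.3 ± 4.61 and 31.2 ± 2.08 CPM per kb (SD, n = 3). In aged liver they were 48.7 and 34.6 CPM per kb, and Pdk4 was above Cpt1a in 5 of the 7 samples. The most accessible of the 49 regions per kb was the one at 3388235 downstream of Cpt1a, at 78.4 CPM per kb, which is the promoter of the neighbouring gene Tesmin and had a log2FC of -0.06 (adjusted p = 0.77).

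**Figure D2:**
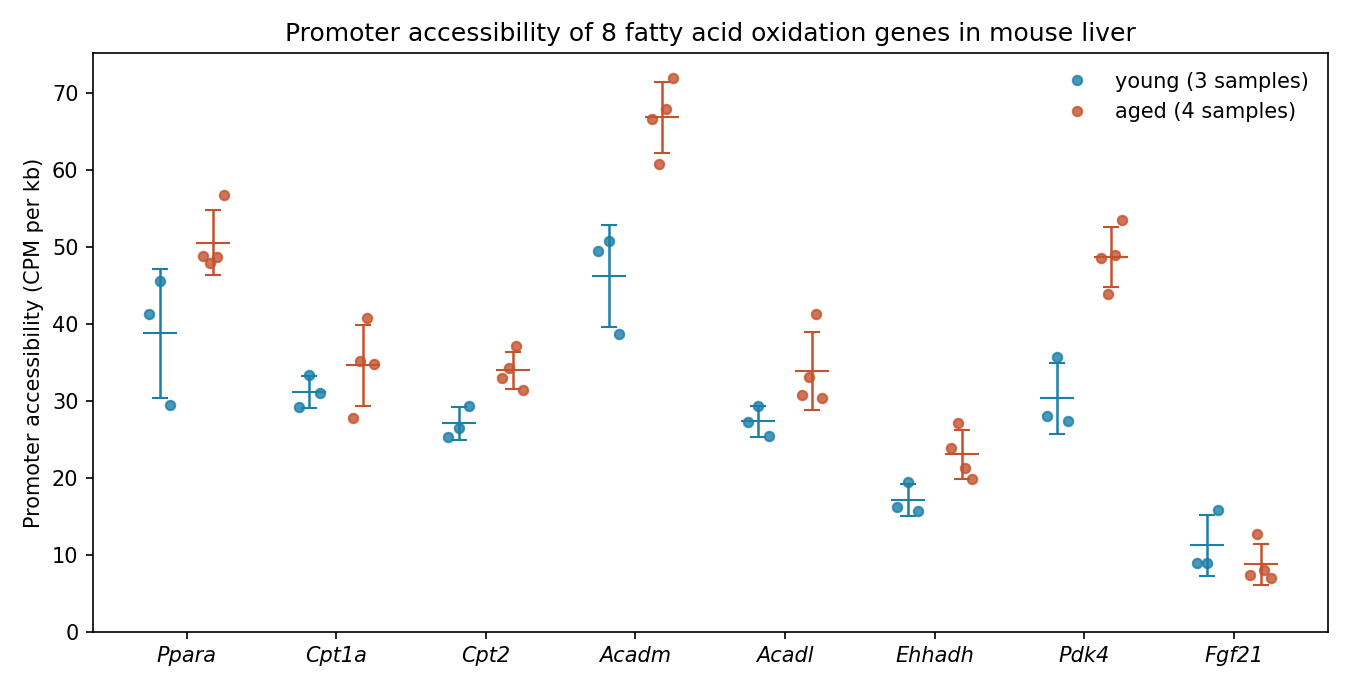
Promoter accessibility in CPM per kb for each of the 8 genes, with a point for each sample, a horizontal line for the mean and bars for the SD of 3 young and 4 aged samples. The aged samples lie above the young ones at Pdk4 (48.7 against 30.3 CPM per kb on average) and Acadm (66.8 against 46.3), and the ages overlap at Cpt1a and Fgf21.

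Among the promoter regions most like that of Ppara over the 7 samples, of 15421 others, were those of Ip6k2 (Pearson r = 0.997 of log2 CPM) and Ppp3r1 (r = 0.994), and the samples share their age groups and depths. Ip6k2 measured 42.4, 48.95 and 26.3 CPM in young and 51.7, 52.4, 52.1 and 62.6 CPM in aged samples, so that, like Ppara, it was lowest in young replicate 3 and highest in aged replicate 4. Of the other 7 genes, Acadm came closest to Ppara (r = 0.94), at rank 405 of the 15421, and Fgf21 was opposite (r = -0.80, rank 15033).

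Beyond the 8 genes, 73 genes of the same pathway were looked up, and 72 of them have a promoter region. Of these, 5 rose in aged liver at an adjusted p under 0.05, where 4.48% of all promoter regions did, and none fell, where 2.06% of promoter regions did (edgeR, and 0 also with DESeq2 and limma voom, and 0 at an unadjusted p under 0.05 with a negative sign). The median log2FC was 0.21, with 58 positive and 14 negative, beside a median of 0.09 over all promoter regions. With strength offsets the median was -0.03, no pathway promoter was higher, and Mlycd, picked out by this result, was lower (-0.45, adjusted p = 0.037, against -0.22 and 0.21 in the main fit). The count of higher promoters was also 0 without aged replicate 1, aged replicate 3 or young replicate 1, and 1 without young replicate 2, the fits with few calls over all regions. Without aged replicate 4, 1 was lower.

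In mitochondrial β-oxidation all 13 genes, with 12 distinct regions, were positive in the main fit, where 61.1% of all promoter regions were. With strength offsets the median log2FC of this group was 0.02 instead of 0.25, and Acadvl, Hadha, Hadhb, Eci2, Acaa2 and Etfb were negative. Echs1, the enoyl-CoA hydratase, went from 68.4 ± 5.97 (SD, n = 3) to 98.0 ± 6.89 CPM (SD, n = 4). Its log2FC was 0.52 (adjusted p = 0.020 from edgeR), though its promoter region is shared with Paox. Etfa, a subunit of the flavoprotein that takes up electrons from acyl-CoA dehydrogenases, went from 53.9 ± 3.09 (SD, n = 3) to 77.7 ± 7.34 CPM (SD, n = 4; 0.52, adjusted p = 0.020). The trifunctional enzyme genes Hadha and Hadhb share 1 region (0.13, adjusted p = 0.52). Pdk1, a kinase of the same family as Pdk4, went from 66.8 ± 8.03 (SD, n = 3) to 96.9 ± 3.09 CPM (SD, n = 4). This was a log2FC of 0.53 (adjusted p = 0.019 from edgeR), beside 0.26 at Pdk2 (0.18) and -0.32 at Pdk3 (0.42). In the peroxisomal group Decr2, the reductase that handles unsaturated fatty acids, had a log2FC of 0.43 (adjusted p = 0.037). At the FGF receptor genes Fgfr4 and Fgfr1 the log2FC was 0.51 (adjusted p = 0.043 from edgeR) and -0.24 (0.70), and at Klb it was 0.40 (0.081).

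The other steps held no call in the main fit, while with DESeq2 and with GC offsets Acsl1, Crat, Crot, Slc22a5 and Plin2 passed as higher, and with GC offsets also Rxra, Sirt1 and Slc27a5. Among 12 receptors, partners and coactivators, log2FC values ran from -0.12 at Med1 to 0.38 at Rxra, the partner of PPARα (adjusted p = 0.098). All 6 uptake and binding genes were positive, up to 0.40 at Cd36 (adjusted p = 0.43 from edgeR), with a median of 0.32. With strength offsets that median was 0.01, and Slc27a2 and Slc27a5 were negative (-0.15 and -0.0016). Among 4 acyl-CoA synthetases, Acsl1 had 0.53 (adjusted p = 0.060). The ω-oxidation gene Cyp4a14 was the most negative of the list at -0.38, with a wide error (SE 0.61, adjusted p = 0.75).

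Markers of liver cell types were read in the same way. All 6 hepatocyte promoters were present and positive, and summed to 454.4, 542.7 and 510.9 CPM in young and 640.4, 597.4, 705.7 and 675.2 CPM in aged samples. Apoa1 was the most accessible of them and passed the test (log2FC 0.53, adjusted p = 0.033 from edgeR). With strength offsets this was lost (0.08, adjusted p = 0.77), the median over the 6 was 0.02 instead of 0.31, and Alb and Hnf4a were negative. All 3 stellate cell promoters with a region were negative, and summed to 29.1, 26.7 and 26.6 CPM in young and 23.5, 16.1, 16.3 and 19.1 CPM in aged samples, with Reln the most accessible (-0.64, adjusted p = 0.059) and Lrat positive with strength offsets (0.07). The 4 endothelial promoters summed to 70.8, 70.3 and 64.0 CPM in young and 54.8, 54.1, 73.5 and 88.2 CPM in aged samples, with Stab2 as the most accessible. Of 6 Kupffer cell and macrophage genes, Clec4f alone has a promoter region, at 2.39 CPM in young and 1.58 CPM in aged liver. Adgre1, Cd68, Csf1r, Vsig4 and Marco have no promoter region, nor do any of the 6 lymphocyte genes. Of 4 cholangiocyte genes, Epcam and Spp1 have promoter regions, with Epcam at -0.77 (adjusted p = 0.12 from edgeR) and Spp1 at 0.16 (adjusted p = 0.77). The part of cell composition in the differences at the 8 genes was not tested, and in bulk tissue fewer cells of a type and less accessible chromatin per cell cannot be told apart.

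Sequence was read from GRCm38 and RefSeq for all 49 regions and for the gene promoters. The PPAR response element is a direct repeat of the core AGGTCA with 1 base between (DR1). On both strands, no exact repeat lay in the 49 regions, and 0.135% of all regions held one in their central 300 bp. With at most 1 mismatch in the 12 core bases, 3 of 49 regions held a match over their whole length and 2 held one in the central 300 bp, where 1.36% of all regions did. With at most 2 mismatches, 3 of 49 held one in the central 300 bp, where 7.62% did. Over their whole length 14 of 49 held one, in called and uncalled regions. The share over all regions was not taken for whole lengths. A match is a description of the letters, and says nothing of PPARα binding. The 3 matches with 1 mismatch are shown with 8 bases either side and the cores in capitals, from a Ppara region that lies over an exon (chr15:85787601-85787629, minus strand), the region downstream of Cpt2 that passed the test (chr4:107899846-107899874, plus strand) and the region downstream of Fgf21 (chr7:45610763-45610791, minus strand), and none of the matches lies in an exon.
Ppara: aggtcctgAGGTCAcAGGTAAacacattc
Cpt2: taatctggAGGTCAgAGGACActgcagga
Fgf21: acatttaaAGGTCAgAGGACAacttggag

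Matches with 2 mismatches in regions that passed the test are shown for a Ppara intron (chr15:85748585-85748613, plus strand) and the Acadm promoter (chr3:153944961-153944989, minus strand). Another such match, in the Cpt1a intron at 3363016, is not shown.
Ppara intron: gaactttgAGGTCAcTGTTCAtcctcaac
Acadm promoter: ccaagtaaAGGTCAcAGCTGActgctaga

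The 2 promoters that passed the test are shown over the bases before their RefSeq start that no annotated exon covers, with capitals where the PPAR core, the GC box with letters GGGCGG or the box with letters CCAAT occurs on either strand. These letters were chosen after the values were seen. Over 250 bases before the start of 32851 RefSeq promoters, 14.0% hold the core, 32.7% hold the GC box and 33.8% hold the CCAAT box. All 8 genes were matched in this table. Acadm and Pdk4, the genes with the called promoters, are also the 2 of the 8 that hold no GGGCGG in this window, against 2 to 4 copies in the others, a description with no test. The Acadm stretch (chr3:153944644-153944893, minus strand) holds 1 core and has a GC content of 64.0%, and the Pdk4 stretch (chr6:5496310-5496528, minus strand) holds 1 CCAAT.
Acadm: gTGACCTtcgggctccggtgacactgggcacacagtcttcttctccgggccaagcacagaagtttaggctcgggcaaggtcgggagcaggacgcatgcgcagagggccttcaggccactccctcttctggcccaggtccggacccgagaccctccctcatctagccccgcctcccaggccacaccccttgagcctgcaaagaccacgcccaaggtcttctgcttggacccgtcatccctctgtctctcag
Pdk4: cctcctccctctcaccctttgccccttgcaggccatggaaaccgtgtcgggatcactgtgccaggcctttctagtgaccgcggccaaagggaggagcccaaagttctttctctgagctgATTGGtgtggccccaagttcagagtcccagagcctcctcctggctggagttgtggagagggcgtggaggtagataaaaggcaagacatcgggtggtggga

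The middle 200 bases of the 2 Ppara introns that passed the test are shown since these were the steepest decreases of the 49 regions, on the plus strand, and neither holds AGGTCA. The first window (chr15:85748355-85748554) holds a long CA repeat, and the second (chr15:85796832-85797031) does not.
Ppara first: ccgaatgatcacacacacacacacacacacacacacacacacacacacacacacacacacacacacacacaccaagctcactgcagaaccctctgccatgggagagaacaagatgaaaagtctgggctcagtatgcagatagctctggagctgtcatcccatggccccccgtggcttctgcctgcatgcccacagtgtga
Ppara second: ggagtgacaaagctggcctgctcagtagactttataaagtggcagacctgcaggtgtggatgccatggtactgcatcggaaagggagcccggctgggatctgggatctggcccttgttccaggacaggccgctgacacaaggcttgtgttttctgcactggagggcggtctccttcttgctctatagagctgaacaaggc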

How the data were processed

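ATAC-seq libraries of 3 young and 4 aged liver samples were used. The authors deposited raw counts per consensus region; per the submitters' processing notes and methods, reads were trimmed with cutadapt 1.13, aligned to GRCm38 with Bowtie2 2.4.1, filtered for mapping quality, duplicates and mitochondrial reads, and counted with featureCounts in regions that MACS2 2.2.7 called in at least 2 libraries. Regions were annotated with GENCODE M21. The ages were compared with edgeR 4.0.16 (TMM, quasi-likelihood F test, two-sided, R 4.3.3) over 55680 regions with no count filter, and p-values were adjusted by Benjamini-Hochberg over all of them. The fit was tested on simulated data under tagwise and trended dispersions. In the simulated set with tagwise dispersions more calls were false than the nominal rate, so adjusted p may be somewhat too small. Log2 CPM used a prior count of 2. The standard error is the log2 fold change over the square root of F. Alternatives were DESeq2 1.42.0, limma voom 3.58.1, other scalings, loess offsets (span 0.3) on abundance or GC content, filters, summed pairs of aged samples and single libraries left out. Regions were aligned to the genome with minimap2 2.31 to find copies of at least 95% identity over 80% of their length. Named are the 8 genes by promoter, every region past the threshold, each gene's largest difference, and pathway promoters past the threshold. Other regions, and the grouping of Ppara and Cpt1a gene body regions outside promoters, were chosen after their values were seen. Some items of the lists and 1 sequence are not reported here. Members and lists were chosen with earlier results of these data known.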

Additional observations from a re-analysis of the deposited data

Results flagged for a closer look

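Within the 4 aged samples, 6 of 49 regions had 1 sample that stood apart in log2 CPM by Dixon's test at the 95% level, and chance alone flags about 5% of such groups. In Ppara, aged replicate 2 was highest at 85724406 (3.88, the others 2.87 to 2.97) and aged replicate 4 was highest at the promoter at 85733728 (7.26, the others 7.01 to 7.04). In Cpt1a, aged replicate 1 was lowest at 3335965 (2.82, the others 3.60 to 3.73) and at 3344904 (3.18, the others 4.06 to 4.19), and aged replicate 3 was highest at 3363016 (3.32, the others 3.14 to 3.15), where all of them stayed below the lowest young value of 3.71. Downstream of Acadm at 153921379, aged replicate 2 was highest (3.53, the others 2.59 to 2.74). Young groups of 3 were not tested.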

How the results depend on the processing

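At the named regions calls moved more than directions did. Directions also moved over the 12 promoter regions of the 8 genes, with 11 positive in the main setting and 7 with abundance offsets. Of 293 comparisons of a named region with an alternative, 242 stayed on their side of the threshold with the same sign, 44 lost the call (all at the 6 called regions, which had 21 alternatives each), 6 gained one and 1 reversed, the Cpt1a promoter with abundance offsets (-0.25). Of the 49 regions, 6 passed in the main setting, 9 with limma voom, 8 with GC offsets, 7 with DESeq2 or total counts, 9 with aged 2 and 4 summed, 1 with abundance offsets, 3 with at least 10 counts in every sample, 2 with aged 1 and 3 summed, 0 at an adjusted p under 0.01, and 0 to 7 with 1 library left out. Of the pathway promoters, 5 passed in the main setting, 12 with DESeq2, 16 with GC offsets, 10 with limma voom, 3 with total counts, 1 with abundance offsets, 3 with at least 10 counts in every sample, 0 with aged 1 and 3 summed, 3 with aged 2 and 3 or with aged 3 and 4 summed, 8 with aged 2 and 4 summed, 0 at an adjusted p under 0.01, and 0 to 6 with 1 library left out. Of these, 1 was lower with abundance offsets and 1 without aged replicate 4. The cause of these shifts was not tested. The median log2 fold change over the 49 regions was -0.06 in the main setting, -0.18 with total counts, -0.17 with abundance offsets, 0.01 with GC offsets and -0.13 to -0.01 with 1 library left out. Total counts moved the median of all regions from -0.04 to -0.15, and GC offsets raised the share of calls that were higher from 42.5% to 63.0%, where DESeq2 gave 58.8% and total counts 15.6%. Deviations of samples with the same replicate number correlated at -0.119, 0.0565 and 0.0298. Those of young replicate 1 and aged replicate 4, with different numbers, correlated at 0.232. Deviations within such small groups cannot tell whether the numbers pair samples. With a replicate block, 8 of 49 regions and 7 pathway promoters passed, 1 of the 7 as lower. The weakest libraries, at 4474652 and 5108283 counts, limit the precision at weak regions.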
